A study of Mus musculus with 75 samples.

Results

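The genes of the pocket proteins and of the DREAM complex were followed in mouse skin fibroblasts through replicative senescence, the lasting stop in division that primary cells reach after repeated passaging, and after manipulation of 3 transcription factors. The 9 genes were taken by name, with earlier results of these data known. They are the pocket protein genes Rb1, Rbl1 and Rbl2, the MuvB subunit genes Lin9, Lin37, Lin52 and Lin54, and the activator genes Mybl2 and Foxm1. All 9 were found among the 24984 genes of each RNA-seq count file, and all 9 have an annotated promoter that could be searched for ATAC-seq peaks.

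Pocket proteins restrain cell division. The product of Rb1 binds and silences the activating E2F factors, and the products of Rbl1 and Rbl2 bind E2F4 or E2F5. In resting cells a pocket protein of the Rbl type, E2F4 or E2F5 with a DP partner, and the MuvB core join into DREAM, which represses genes of the cell cycle. When cells divide, the core leaves the pocket protein and joins the MYBL2 protein and then FOXM1, and the same subunits then activate genes of G2 and mitosis. LIN54 is the subunit that reads the CHR element (cell cycle genes homology region) in DNA, LIN52 carries the residue through which the kinase DYRK1A drives assembly of DREAM, LIN37 is needed for repression, and LIN9 contacts MYBL2.

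All cells were skin fibroblasts of the strain C57BL/6. The passage series came from cells of 2-month-old female mice, labelled untreated, and ran from passage 1 (P1) over P3 and P5 to P7, with 4 RNA-seq libraries each and with 4 ATAC-seq samples of P1 and 3 of each later passage. E2f4 was overexpressed from a doxycycline-induced lentiviral construct (2 libraries) and compared with cells overexpressing a vector control (2 libraries). The study's results place this in P4 cells, while its methods name a later passage for senescence interventions. For the Tead1 knockdown its results name no passage. E2f4 was knocked down in P3 cells with the hairpin sh1 (3 libraries), Tead1 with sh3 and sh4 (3 each) and, in pre-senescent cells, Atf3 with sh5 and sh6 (3 each), and each experiment had its own non-targeting control, nt (3 libraries). Cells of newborn and of 2-month-old mice were both used for the manipulations, and the labels do not say which were used for each library. The labels do not say either that replicates came from separate animals or cultures, so the p-values measure the spread between these libraries, which may be technical.

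The 9 genes lie on 8 chromosomes of the mouse assembly GRCm38, which is mm10, at chr14:73192858-73325951 (Rb1, - strand), chr2:157145893-157204534 (Rbl1, -), chr8:91070057-91123844 (Rbl2, +), chr1:180641150-180690687 (Lin9, +), chr7:30555441-30559721 (Lin37, -), chr12:84451508-84531533 (Lin52, +), chr5:100442033-100500639 (Lin54, -), chr2:163054327-163084688 (Mybl2, +) and chr6:128362994-128375886 (Foxm1, +). Reads were counted without regard to strand, and Rbl2 shares 8.49% of its exon bases with Aktip on the opposite strand, so strand could not assign the reads of that stretch to either gene. By default HTSeq counts such reads for neither gene, and the overlap mode used is not given in the sources used here, so the level of Rbl2 is uncertain to that extent. Foxm1 shares 2.06% of its exon bases with Tex52, and its start lies 83 bases from that of Rhno1, which runs the other way. The start of Lin52 lies 484 bases from that of Aldh6a1, also divergent, so a peak at either of these promoters belongs to a pair of genes.

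The RefSeq promoter table for GRCm38.p6 held 6 of the 9 genes and not Rb1, Lin9 and Foxm1. In 5 of these 6 the stretch from 250 bases before to 50 bases after the start held an E2F match, searched on both strands as TTTNNCGC or GGCGGGA, against 15.2% of the 32817 promoters in the table. The member count is by gene and the share is by promoter. The 6 genes had 7 promoters, since Lin54 has an inner and an outer start, and the outer one held no E2F match. The 250 bases before the start are shown for the members whose RNA or promoter peak the results turn on, because promoters of genes that fell with passage (Rbl1 and Mybl2) and of genes that did not (Lin37 and Lin52) hold such a match close to the start, and the promoter of Rbl2 holds none. They are the + strand stretches chr2:163054385-163054634 (Mybl2), chr12:84451258-84451507 (Lin52) and chr8:91069807-91070056 (Rbl2) and the - strand stretches chr2:157204535-157204784 (Rbl1) and chr7:30559647-30559896 (Lin37) of GRCm38.p6, each written 5′ to 3′ along its gene. Capitals mark the E2F matches, the CHR match TTTGAA or its reverse complement, and the CCAAT box or its reverse complement.
Rbl1: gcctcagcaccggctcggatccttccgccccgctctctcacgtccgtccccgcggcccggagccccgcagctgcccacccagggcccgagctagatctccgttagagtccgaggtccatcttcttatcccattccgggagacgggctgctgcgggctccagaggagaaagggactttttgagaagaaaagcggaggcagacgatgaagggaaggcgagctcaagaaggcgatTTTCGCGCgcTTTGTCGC
Mybl2: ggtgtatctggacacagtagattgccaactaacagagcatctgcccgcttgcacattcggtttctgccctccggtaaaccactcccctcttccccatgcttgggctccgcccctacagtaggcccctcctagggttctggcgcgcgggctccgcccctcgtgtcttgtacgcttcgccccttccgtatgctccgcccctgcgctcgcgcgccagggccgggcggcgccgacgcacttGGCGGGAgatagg
Lin37: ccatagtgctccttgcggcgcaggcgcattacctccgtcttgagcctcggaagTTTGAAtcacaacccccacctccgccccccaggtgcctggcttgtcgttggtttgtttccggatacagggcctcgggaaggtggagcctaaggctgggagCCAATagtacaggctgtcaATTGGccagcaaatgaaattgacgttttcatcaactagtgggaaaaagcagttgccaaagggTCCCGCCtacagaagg
Lin52: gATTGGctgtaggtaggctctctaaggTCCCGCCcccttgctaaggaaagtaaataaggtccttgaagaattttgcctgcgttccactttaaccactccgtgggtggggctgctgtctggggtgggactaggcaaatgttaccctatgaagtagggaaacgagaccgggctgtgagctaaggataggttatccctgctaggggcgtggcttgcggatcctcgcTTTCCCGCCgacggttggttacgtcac
Rbl2: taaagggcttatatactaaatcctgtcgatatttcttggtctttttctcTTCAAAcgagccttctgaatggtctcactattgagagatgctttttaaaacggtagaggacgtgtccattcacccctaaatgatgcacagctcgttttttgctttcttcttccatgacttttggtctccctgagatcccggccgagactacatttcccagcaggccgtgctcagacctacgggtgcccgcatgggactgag
Rbl1 held a pair of TTTNNCGC matches, at bases -18 to -11 and -8 to -1 counted from the start, a motif found in 5.16% of all promoters. Mybl2 held GGCGGGA at -13 to -7 and Lin37 held its reverse complement at -16 to -10, and this motif is found in 11.3% of promoters. In Lin52 the match TTTNNCGC at -27 to -20 overlaps the reverse complement of GGCGGGA at -25 to -19, and a further copy of the latter lies at -223 to -217. Lin37 also held TTTGAA at -197 to -192, CCAAT at -97 to -93 and its reverse complement at -78 to -74. The reverse complement of TTTGAA at -201 to -196 was the sole match in Rbl2. TTTGAA is found in 17.9% of promoters and CCAAT in 37.4%. Lin54 has 2 annotated starts, and the inner one held GGCGGGA at -89 to -83 and TTTGAA at -162 to -157 and the CHR variant TTCGAA (1.56% of promoters) at 29 to 34, while the outer one held TTTGAA at 40 to 45. A match is a run of letters and not evidence of binding.

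Total counts lay between 13430229 and 15725823 in the passage libraries and between 9147324 and 27552949 over all 44 libraries. Members had 30 to 1605 counts in each passage library, the lowest being Mybl2 at P7. The fibroblast markers had reads in every group, 7 of 7. Within the passage series, markers of other cell types were highest at P1. Levels are in CPM, which are counts scaled to the library total after its adjustment by the TMM method. The summed macrophage markers (7 of 7 with reads) were at 288 to 446 CPM at P1 and 42.5 to 61 at P3. In the same order, the endothelium markers (6 of 6) were at 164 to 179 and 41.3 to 46.9. The skeletal muscle markers were at 137 to 211 (6 of 6) and 53.9 to 61.1 (5 of 6, Ckm at 0). The keratinocyte markers (6 of 6) were at 55.5 to 356 and 1.78 to 4.34. The fibroblast sum was lower at P1 (17700 to 20000 CPM) than at P3 (26100 to 32100), without overlap. All of these sums therefore move with every comparison against P1 below, and their part in those results was not tested. At P5 the macrophage sum was 22 to 31 CPM, the endothelium sum 14.7 to 17.5, the skeletal muscle sum 30.3 to 57.6 and the keratinocyte sum 2.84 to 5.69. At P7 the 4 sums were 35.3 to 52.4, 10.1 to 13.3, 39.1 to 110 and 4.73 to 7.72, with Myog, Ckm, Krt14 and Krt1 at 0. In such bulk samples fewer cells of a type and less RNA per cell cannot be told apart.

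From P1 to P7, 5 of the 9 mRNAs fell by more than 2-fold, namely Mybl2, Foxm1, Rbl1, Lin9 and Lin54, and Rbl2 rose slightly. Rb1, Lin37 and Lin52 did not pass the test (edgeR quasi-likelihood test, adjusted p under 0.05 by Benjamini-Hochberg over all 13442 genes tested). The background was large in this comparison, since 62.5% of all genes tested changed and 21.4% did so by more than 2-fold, with 13.3% falling and 8.1% rising that far. The median log2 fold change was -1.28 over the members and -0.01 over all genes tested. All 9 members passed the filter on low counts in every experiment.

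The activators changed most. Mybl2, which encodes the B-Myb protein that binds the MuvB core in S phase, was at 30.8, 30.2, 26.2 and 26.4 CPM in the P1 libraries and at 21.8, 15.5, 22.3 and 19.5 at P3. It was at 10.5, 7.05, 8.72 and 8.01 CPM at P5 and at 2.67, 2.62, 2.31 and 2.6 at P7. No library of a later passage reached the lowest value of the passage before it. The fall from P1 to P7 was 11.1-fold (log2 fold change -3.47, SE 0.16, adjusted p = 1.41e-12).

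Foxm1, which encodes the forkhead factor that drives mitotic genes through the same core, was at 97.9, 97.5, 99.5 and 99.3 CPM at P1 and at 73.9, 60.2, 76.7 and 72.4 at P3. At P5 it was at 39.3, 25.6, 27.8 and 26.7 CPM, and at P7 at 9.31, 15.4, 13.1 and 11.6. The passages again did not overlap, and the first P5 library stood above the other 3. From P1 to P7 Foxm1 fell 7.99-fold (log2 fold change -3, SE 0.15, adjusted p = 3.55e-12).

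Among the pocket proteins, Rbl1 fell and its close relative Rbl2 rose slightly. Rbl1 was at 46.8, 48.2, 46.3 and 45 CPM at P1, 31.3, 32.1, 40.5 and 35.3 at P3, 21, 19.8, 17.6 and 16.4 at P5 and 9.24, 8.1, 11.8 and 9.43 at P7. The 4 passages were apart in every library, and the fall from P1 to P7 was 4.83-fold (log2 fold change -2.27, SE 0.12, adjusted p = 9.45e-12).

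Rbl2 was at 31.6, 28, 34.5 and 34.8 CPM at P1, 32.7, 37.3, 32.8 and 39.4 at P3, 40.5, 44.9, 38.5 and 36.6 at P5 and 31.5, 37.7, 42.4 and 44.7 at P7. The P1 and P7 libraries overlapped, since the first P7 library lay among those of P1. The rise of 1.21-fold passed the test (log2 fold change 0.28, SE 0.11, adjusted p = 0.0374), but it was lost when any of 4 libraries was left out, replicate 1 or 2 of P1 or replicate 3 or 4 of P7, with an adjusted p of up to 0.127, and also with a filter of at least 10 counts (log2 fold change 0.25, adjusted p = 0.0627). Rb1 was at 21.1 to 27.3 CPM at P1 and 16.2 to 24 at P7, and the interval of its log2 fold change ran from -0.6 to 0.1 (adjusted p = 0.198).

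The MuvB subunits split. Lin9 was at 17.8, 18.5, 18 and 19.5 CPM at P1, 12.8, 17.8, 20.6 and 17.1 at P3, 9.76, 8.99, 4.98 and 5.49 at P5 and 5.5, 3.78, 5.92 and 5.64 at P7. P1 and P3 overlapped, as did P5 and P7, and the first pair of passages lay above the second in every library. The fall from P1 to P7 was 3.54-fold (log2 fold change -1.82, SE 0.2, adjusted p = 2.11e-07).

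Lin54 was at 41.8, 45.9, 43.8 and 43.1 CPM at P1, 30.8, 38, 41.2 and 41 at P3, 24, 23, 16.9 and 16.6 at P5 and 16.9, 18.7, 17.7 and 18.3 at P7. Every library of P1 and P3 lay above every library of P5 and P7, and from P1 to P7 Lin54 fell 2.44-fold (log2 fold change -1.28, SE 0.12, adjusted p = 2.49e-08). The small subunits Lin37 and Lin52 did not pass. Lin37 was at 7.86 to 10.3 CPM at P1 and 8.02 to 11.5 at P7, and the interval of its log2 fold change ran from -0.22 to 0.52 (adjusted p = 0.465). Lin52 was at 6.9 to 8.77 CPM at P1 and 8.38 to 9.88 at P7, with an interval from -0.07 to 0.46 (adjusted p = 0.198). Libraries of the 2 passages overlapped for both genes. In all, 5 members did not overlap between P1 and P7, where 57.4% of all genes tested did not.

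**Figure D1:**
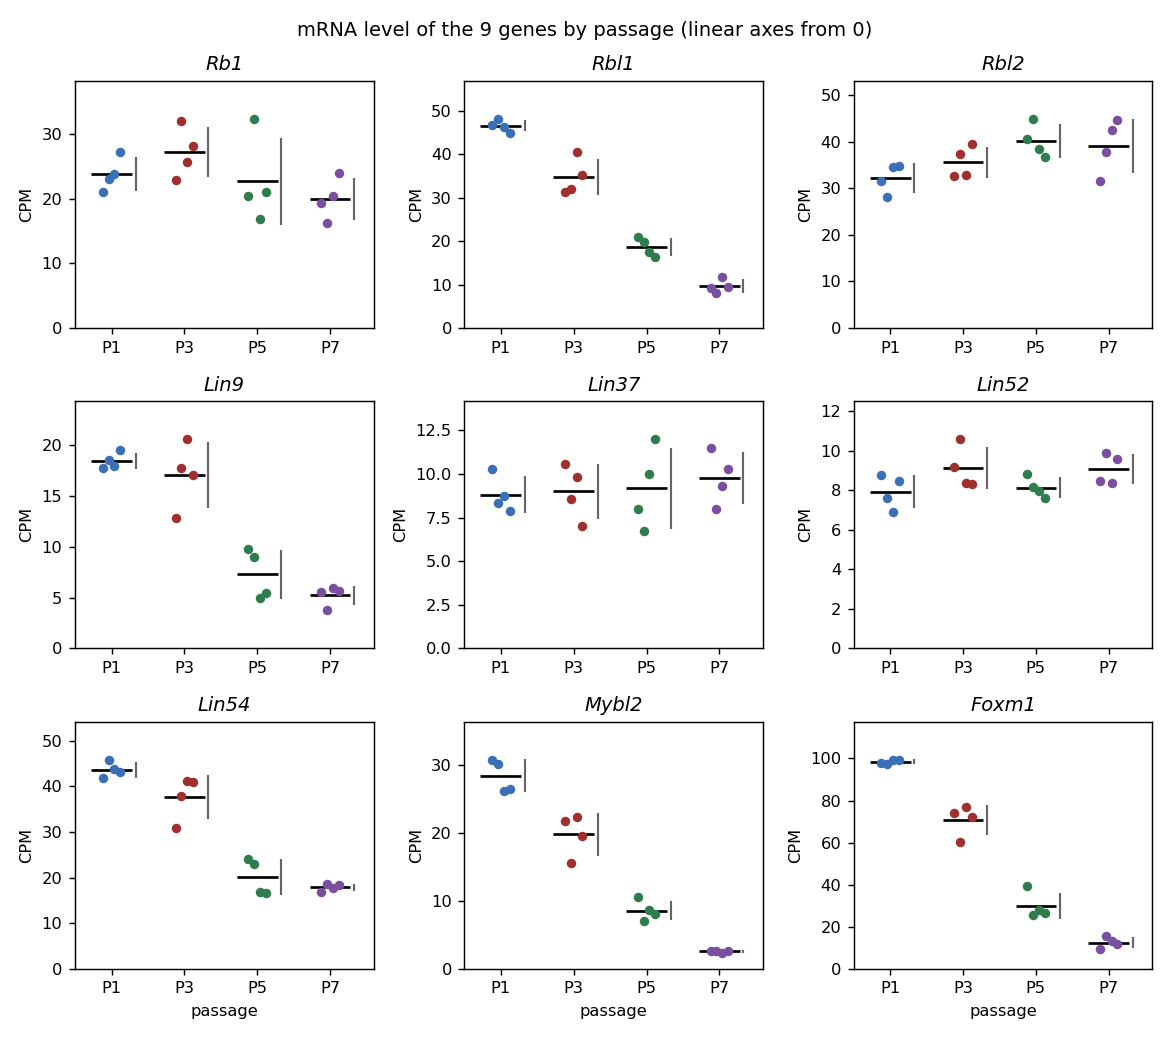
Level of the 9 mRNAs (CPM, vertical axis, 1 panel per gene with its own axis from 0) at P1, P3, P5 and P7. Each point is 1 of 4 libraries, the black line is their mean and the grey bar 1 SD to either side. Mybl2 goes from a mean of 28.4 CPM at P1 to 2.55 at P7 and Foxm1 from 98.5 to 12.3, while Lin37 is at 8.81 and 9.79 and Lin52 at 7.94 and 9.08.

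The steps in which a member passed the test were not the same for all members. From P1 to P3, 3 members fell and none rose, against a background of 33.4% of genes changed and 17.5% lower. These were Mybl2 (log2 fold change -0.52, SE 0.13, adjusted p = 0.00375), Foxm1 (-0.48, SE 0.13, adjusted p = 0.00792) and Rbl1 (-0.42, SE 0.11, adjusted p = 0.0056). From P3 to P5, where 28.7% of genes changed and 15.3% were lower, 5 members fell. Foxm1 fell by 1.25 on the log2 scale (SE 0.13, adjusted p = 3.98e-06), Lin9 by 1.23 (SE 0.19, adjusted p = 1.67e-04), Mybl2 by 1.21 (SE 0.13, adjusted p = 5.3e-06), Lin54 by 0.91 (SE 0.12, adjusted p = 2.84e-05) and Rbl1 by 0.9 (SE 0.11, adjusted p = 1.73e-05). From P5 to P7, where 16.8% of genes changed and 9.1% were lower, Mybl2 (-1.75, SE 0.16, adjusted p = 1.31e-06), Foxm1 (-1.28, SE 0.14, adjusted p = 5.73e-06) and Rbl1 (-0.96, SE 0.12, adjusted p = 1.75e-05) fell again. Lin9 did not pass in this last step (log2 fold change -0.49, interval -0.92 to -0.05, adjusted p = 0.121) and neither did Lin54 (-0.17, interval -0.42 to 0.09, adjusted p = 0.392). In the first step Lin54 did not pass either (log2 fold change -0.21, interval -0.45 to 0.03, adjusted p = 0.173). Mybl2, Foxm1 and Rbl1 thus passed in each of the 3 steps, and Lin9 and Lin54 passed between P3 and P5 only. Whether the steps of 1 gene differ from those of another was not tested. The macrophage and endothelium sums given above also fell without overlap between P3 and P5, and their part in that step was not tested.

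Over the 16 passage libraries, each member was set beside all other genes by the Pearson correlation of log2 CPM. These values describe the same libraries and passages for every pair and carry no test. Mybl2 was most like Troap (0.995), Ccnf and Cdc25b (0.994 each), Foxm1 most like Pole (0.994), Uhrf1 and E2f7 (0.993 each), and Rbl1 most like Ncapg2 (0.993), Clspn and Kif15 (0.992 each). Lin54 was most like Rad18 (0.981), Blm and Atad5 (0.973 each), and Lin9 most like Suz12 (0.986), Supt16 and Xpo1 (0.983 each). The other members had lower values. Rb1 was most like Zfp729a (0.934), Arhgap5 and Zfp518a (0.923 each), Rbl2 most like Tcp11l1 and Ulk4 (0.915 each) and Nbea (0.873), Lin37 most like Sds (0.802), Nudt1 (0.801) and Ssr2 (0.783), and Lin52 most like Zfp870 (0.741), Chsy3 (0.737) and Pdhx (0.727).

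The comparison of P7 with P3 leaves out P1, but markers of other cells moved in it as well. The endothelium sum was at 41.3 to 46.9 CPM at P3 and 10.1 to 13.3 at P7 and the keratinocyte sum at 1.78 to 4.34 and 4.73 to 7.72, both without overlap, while the macrophage, skeletal muscle and fibroblast sums (26100 to 32100 and 30500 to 32700 for the last) overlapped, and the part of these values was not tested. In this comparison 6 members fell and none rose, where 51.3% of all genes changed and 26.5% were lower. Mybl2 (log2 fold change -2.95), Foxm1 (-2.52), Rbl1 (-1.85), Lin9 (-1.71) and Lin54 (-1.07) all passed, with adjusted p of 1.29e-06 or less. Rb1 also passed (log2 fold change -0.45, SE 0.17, adjusted p = 0.0311), with 22.9, 32.1, 25.7 and 28.2 CPM at P3 and 19.4, 16.2, 20.4 and 24 at P7. The highest P7 library of Rb1 lay above the lowest of P3, and the call was lost in 5 of the 16 fits that left out 1 library, those without replicate 2 or 4 of P3 or replicate 1, 2 or 3 of P7 (adjusted p up to 0.106). Rbl2 did not pass in this comparison (0.14, interval -0.1 to 0.37, adjusted p = 0.321).

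To set genes side by side, levels were divided by the length of all annotated exons of the gene. The lengths of the transcripts present in these cells were not measured, and the level of Rbl2 is uncertain as stated above. Both limit the order below and the shares built on it. At P1 the mean was 22.6 CPM per kb of exon for Foxm1, 8.39 for Rbl1, 7.15 for Lin37, 6.88 for Mybl2, 6.85 for Lin54, 6.54 for Rbl2, 5.58 for Lin9 and 3.7 for both Rb1 and Lin52. At P7 the order was Lin37 (7.95), Rbl2 (7.93), Lin52 (4.23), Rb1 (3.11), Foxm1 (2.82), Lin54 (2.81), Rbl1 (1.74), Lin9 (1.58) and Mybl2 (0.618). Foxm1 thus went from the first place to the fifth and Mybl2 to the last. At P1 the neighbours Lin37, Mybl2, Lin54 and Rbl2 did not differ beyond their SDs (0.268 to 0.845), nor did Rb1 and Lin52. At P7 the same held for Lin37 and Rbl2 (SD 1.21 and 1.19), for Rb1, Foxm1 and Lin54 (0.498, 0.582 and 0.122) and for Rbl1 and Lin9 (0.277 and 0.293).

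Among the pocket protein mRNAs per kb, Rbl1 made up 45.1% ± 2.91 (SD, n = 4) at P1 and 13.6% ± 1.76 at P7. Rbl2 went from 35% ± 2.3 to 62% ± 3.31 and Rb1 from 19.9% ± 1.54 to 24.4% ± 2.59. The ratio of Rbl2 to Rbl1 per kb was 0.656 to 0.871 in the P1 libraries, 0.912 to 1.31 at P3, 2.17 to 2.56 at P5 and 3.85 to 5.34 at P7, and no passage overlapped another. This ratio was chosen after the values were seen and is given without a test. Among the 4 MuvB subunits, Lin9 and Lin54 made up 24% ± 1.46 and 29.5% ± 1.84 at P1 and 9.48% ± 1.52 and 17% ± 1.78 at P7. Lin37 went from 30.7% ± 2.79 to 47.8% ± 4.21 and Lin52 from 15.9% ± 1.35 to 25.7% ± 3.36. Within a group of genes a fall of some raises the shares of the others without any change in their level. Between P1 and P7 the levels of Lin37, Lin52 and Rb1 did not pass the test, and Rbl2 rose slightly. These are shares of mRNA, and the subunits of the complex itself were not measured.

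**Figure D2:**
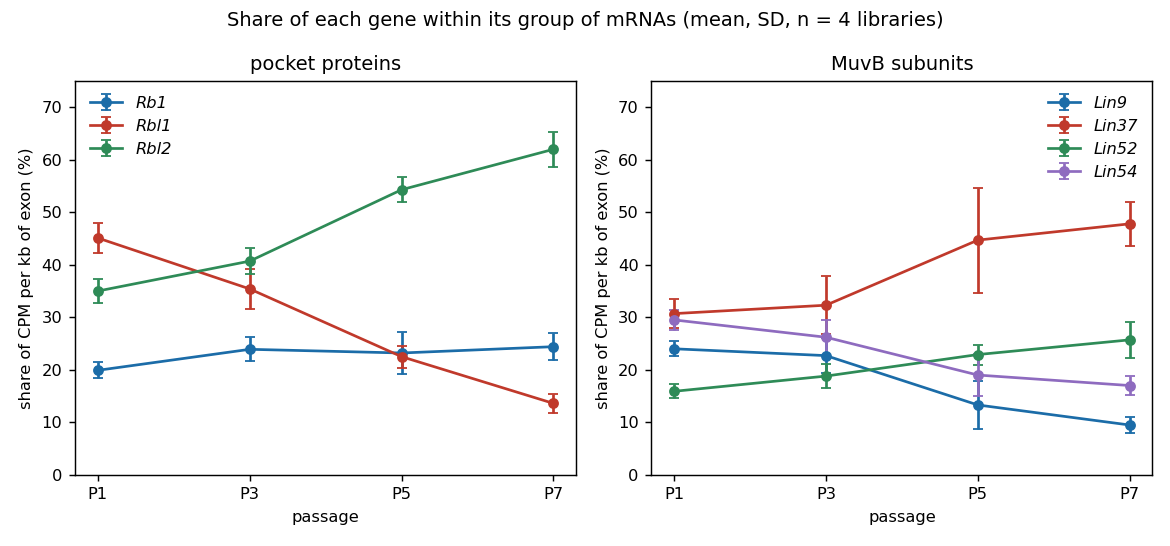
Share of each gene (%, vertical axis) in the summed CPM per kb of exon of the pocket protein genes (left) and of the MuvB subunit genes (right) at each passage. Points are means of 4 libraries and bars 1 SD to either side. Rbl1 falls from 45.1% to 13.6% as Rbl2 goes from 35% to 62%. The shares of Lin37 and Lin52 rise as those of Lin9 and Lin54 fall. Within a panel a lower share of some genes raises that of the others, and the levels of Lin37 and Lin52 did not pass the test.

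The genes that DREAM is known to control fell over the same passages. Of 25 late targets, which are G2 and mitosis genes with CHR elements, all 25 were lower at P7 than at P1, as were 31.9% of all genes tested, with a median log2 fold change of -2.73 against -0.01 over all genes. Ttk, a kinase of the spindle checkpoint, fell by 3.56 on the log2 scale (21 ± 1.89 CPM at P1 and 1.77 ± 0.0681 at P7, SD, n = 4) and Cenpf, of the kinetochore, by 3.5. The smallest falls in this list were those of Cks2 (1.6) and Tpx2 (2.03). Of 25 early targets, which are G1/S genes with E2F sites, all 25 were lower too, with a median of -2.04. Cdc6, which loads the replicative helicase, fell by 3.45 and Uhrf1, which maintains DNA methylation, by 3.43, while Ccne1 and E2f1 fell by 0.48 and 0.41.

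In the first step the counts of the lists were unlike. From P1 to P3, 22 of the 25 early targets fell and 2 of the 25 late targets did, where 17.5% of all genes were lower. The medians were -0.48 and -0.02, and the difference between the lists was not tested. From P3 to P5, 25 late and 23 early targets fell, where 15.3% of all genes were lower. From P5 to P7, 24 late and 17 early targets fell, where 9.1% of all genes were lower. The lists were written with earlier results of these data known, so their direction is not independent evidence.

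The partners and switches of the complex moved in both directions. Of 20 such genes, 13 were lower at P7 than at P1, 4 were higher and 3 did not pass, with a median log2 fold change of -0.48, where 62.5% of all genes changed and 31.9% were lower. The lists share genes, since Ccna2 is also a late target and Ccne1, Ccne2 and E2f1 are also early targets, and all of these were lower. Ccna2, which encodes cyclin A2, fell by 3.25 and E2f2, an activating E2F, by 2.45 on the log2 scale. Ccnd2 and Ccnd1, which encode D-type cyclins that direct the kinases phosphorylating pocket proteins, rose by 2.23 (SE 0.14, adjusted p = 9.42e-11) and 1.01 (SE 0.22, adjusted p = 5.15e-04). E2f4, the E2F most often found in DREAM, fell by 0.27 (45.8 ± 3.2 CPM at P1 and 38.1 ± 3.59 at P7, adjusted p = 0.0122).

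The E2f4 experiments ask which members change when the level of this factor is raised or lowered. E2f4 itself was at 1150 ± 43.8 CPM in the overexpressing libraries and 41.5 ± 8.55 in the vector control (SD, n = 2), and at 21.3 ± 0.776 with sh1 and 60 ± 0.703 with nt (SD, n = 3), so its level followed the labels in both experiments.

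Overexpression of E2f4 raised 3 members and lowered 2, where 57.2% of all 13199 genes tested changed. Mybl2 was at 40.4 and 43.5 CPM with E2f4 and 14.2 and 18.4 in the control, a rise of 2.58-fold (log2 fold change 1.37, SE 0.15, adjusted p = 4.28e-05). Foxm1 was at 101 and 98.9 CPM against 53.6 and 50.6 (log2 fold change 0.94, SE 0.11, adjusted p = 6.39e-05). Lin37 was at 10.9 and 12.1 CPM against 5.28 and 7.9 (0.82, SE 0.2, adjusted p = 0.00534). In these 3 genes both libraries with E2f4 lay above both controls. The pocket protein genes Rb1 and Rbl2 went the other way. Rb1 was at 27.6 and 24.8 CPM against 41.6 and 40.3 (log2 fold change -0.65, SE 0.12, adjusted p = 0.00122), and Rbl2 at 34.3 and 34 against 54.7 and 51.1 (-0.63, SE 0.11, adjusted p = 9.07e-04). Both genes were lower in each library with E2f4, but with 2 libraries a group 81.5% of all genes tested did not overlap.

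Rbl1, which fell with passage, was at 46 and 38 CPM with E2f4 and 48 and 38.2 in the control, and the interval of its log2 fold change ran from -0.36 to 0.28. Lin9 (17.2 and 16.8 against 17.6 and 13.7), Lin52 (9.38 and 9.84 against 12.6 and 10.2) and Lin54 (30.3 and 28.9 against 35.5 and 36.7) did not pass either, with adjusted p of 0.547, 0.209 and 0.0634. Of the late targets 19 rose and none fell, where 57.2% of all genes tested changed. Their median log2 fold change was 0.79 against 0.01 over all genes. Of the early targets 23 rose and none fell (median 0.73). The largest changes were those of Plk1 (1.66) and Cdc20 (1.46), of mitosis, and of Mcm5 (1.57) and Mcm2 (1.47), of the replicative helicase. Of the partners and switches 10 rose and 6 fell. The summed skeletal muscle markers were at 66.3 to 76.4 CPM in the control and 22.9 to 24.2 with E2f4 (3 of 6 with reads in each, with Myh3, Myog and Ckm at 0). The endothelium sum was 4.02 to 4.9 CPM in the control and 9.02 to 9.03 with E2f4, and the keratinocyte sum 5.2 to 5.99 and 2.91 to 3.38. The part of these values in the results was not tested.

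Knockdown of E2f4 lowered Mybl2 and Foxm1 and no other member passed, where 17.8% of 12310 genes tested changed and 7.79% were lower. Mybl2 was at 10.9, 7.99 and 11.3 CPM with sh1 and 15.3, 16.6 and 15.5 with nt (log2 fold change -0.65, SE 0.15, adjusted p = 0.009). Foxm1 was at 44.4, 41.9 and 43.2 CPM with sh1 and 57.9, 61.9 and 60.8 with nt (-0.48, SE 0.08, adjusted p = 0.00103). The groups did not overlap for either gene. The call of Mybl2 was lost without the second nt library (adjusted p = 0.0506).

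Rbl1 (21.1, 19.3 and 19.1 CPM against 24.2, 24.4 and 25.5) missed the threshold (log2 fold change -0.31, interval -0.54 to -0.09, adjusted p = 0.0518). So did Lin9 (9.19, 9.2 and 8.1 against 13.4, 10.4 and 11.2), with a log2 fold change of -0.4 and an interval from -0.74 to -0.06 (adjusted p = 0.0974). In both genes every sh1 library lay below every nt library, as was the case in 1 direction or the other for 35.5% of all genes tested. The intervals of Rbl2 (-0.25 to 0.14), Rb1 (-0.21 to 0.39), Lin37 (-0.26 to 0.39), Lin52 (-0.12 to 0.69) and Lin54 (-0.38 to 0.12) held 0. Of the late targets 12 fell, of the early targets 10 and of the partners 6, where 7.79% of all genes tested were lower. None of the 3 lists held a gene that rose. Bub1 (-0.56) and Top2a (-0.55) led the late list and Mcm3 (-0.83) and Pola1 (-0.63) the early list. The fibroblast markers summed to 23100 to 25600 CPM with sh1 and 30300 to 31300 with nt and the skeletal muscle markers to 111 to 136 and 74.4 to 76.7. The macrophage markers summed to 17.4 to 21 CPM with sh1 and 9.16 to 13.1 with nt, and the keratinocyte markers to 1.82 to 2.3 and 2.56 to 6.99. None of these 4 sums overlapped between the groups, and their part was not tested.

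**Figure D3:**
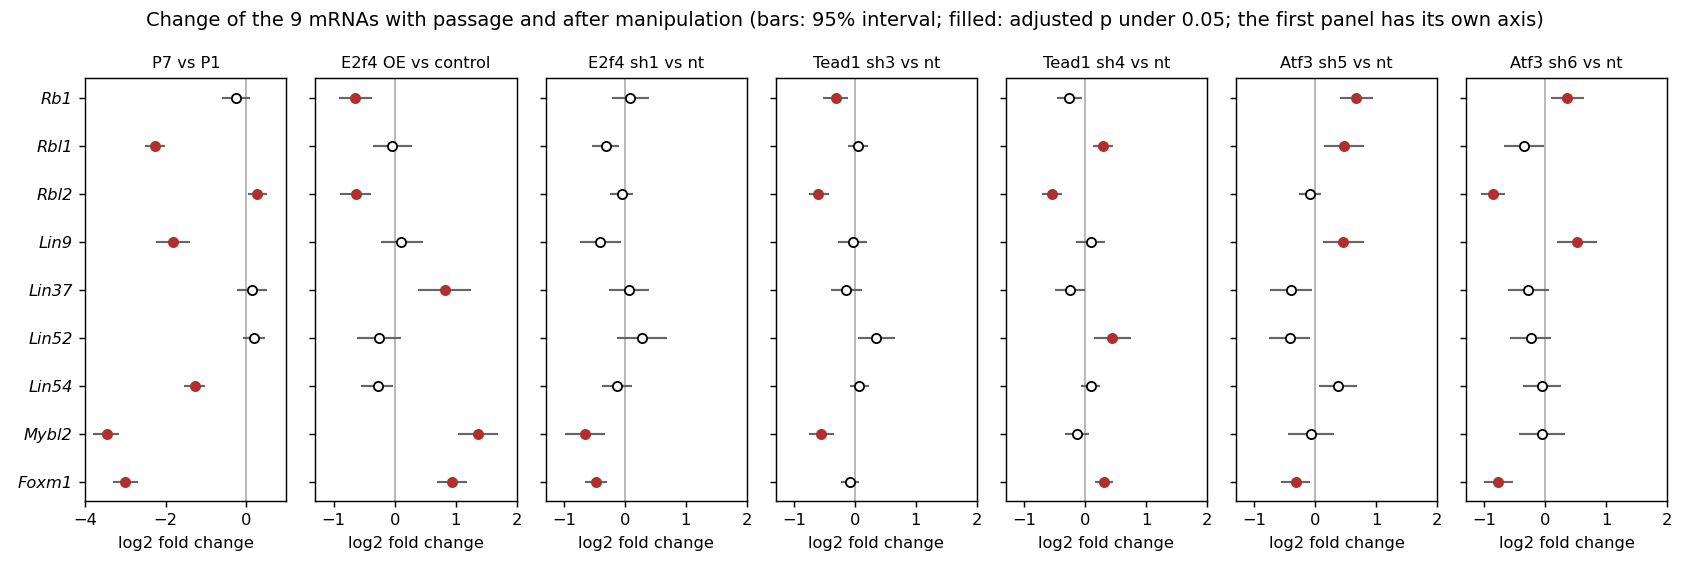
Log2 fold change of the 9 mRNAs (horizontal axis) between P7 and P1 and in the 6 comparisons of a manipulation with its control. Points are estimates, bars 95% intervals and filled points have an adjusted p under 0.05, and the P7 panel has its own axis. Mybl2 and Foxm1 lie at 1.37 and 0.94 with E2f4 overexpressed and at -0.65 and -0.48 with E2f4 knocked down. Rbl2 lies at -0.55 or lower, past the threshold, in 4 of these 6 comparisons, where 29.1% to 57.2% of all genes tested changed. These 4 comparisons include both Tead1 hairpins, which share their controls and nearly all of their target site.

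Knockdown of Tead1, a factor of the Hippo pathway, was measured with 2 hairpins that share the same 3 nt libraries. By the sequences the study lists, the hairpins also share nearly all of their target site, so they are not independent of each other. Tead1 was at 279 ± 9.58 CPM with sh3, 316 ± 3.64 with sh4 and 541 ± 32.2 with nt (SD, n = 3). It was higher with sh4 than with sh3 (log2 difference 0.18, SE 0.04, adjusted p = 0.00625 in edgeR), and the part of this in the results was not tested. Of the 13012 genes tested 35.4% changed with sh3 and 29.1% with sh4. The skeletal muscle markers summed to 64.9 to 74.7 CPM with sh3, 73.1 to 83.5 with sh4 and 98.4 to 99.6 with nt (4 or 5 of 6 with reads, Myog at 0 in all 3 groups), and the fibroblast markers to 26400 to 27200, 25000 to 25800 and 27200 to 28300. These sums move with the results below, and their part was not tested. Rbl2 passed in each comparison. It was at 20.4, 21 and 18.3 CPM with sh3, 19.8, 19.3 and 22.8 with sh4 and 29.2, 31.6 and 29.6 with nt (log2 fold change -0.6, SE 0.08, adjusted p = 6.16e-07 for sh3 and -0.55, SE 0.08, adjusted p = 3.54e-06 for sh4). Neither hairpin overlapped the control, as was the case for 44.7% of all genes with sh3 and 40.0% with sh4. Rb1 was at 12.9, 13.1 and 12.6 CPM with sh3, 12, 15.6 and 12.7 with sh4 and 16.8, 15.6 and 15.7 with nt. It passed with sh3 (-0.31, SE 0.1, adjusted p = 0.016) and missed the threshold with sh4 (-0.26, interval -0.46 to -0.05, adjusted p = 0.0548). The call with sh3 was lost without sh3 replicate 3 or nt replicate 1 (adjusted p up to 0.0617).

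The activators differed between the Tead1 hairpins. Mybl2 was at 13.6, 10.2 and 13 CPM with sh3, 16.6, 15.2 and 17.3 with sh4 and 18.4, 17.9 and 17.6 with nt, and fell with sh3 (log2 fold change -0.55, SE 0.1, adjusted p = 6.86e-05). Foxm1 was at 39.3, 39.5 and 42.1 CPM with sh3, 57.7, 48.3 and 52.6 with sh4 and 46.9, 38 and 43.2 with nt, and rose with sh4 (0.31, SE 0.07, adjusted p = 0.00102). Each sh4 library lay above each sh3 library for both genes, and 24.7% of all genes did not overlap between the hairpins. Set against each other, sh4 was above sh3 for Mybl2 (0.42, SE 0.1, adjusted p = 0.00961) and Foxm1 (0.39, SE 0.07, adjusted p = 4.74e-04), 2 members where 7.37% of all genes differed. The difference in Mybl2 was lost without sh3 replicate 2 or sh4 replicate 3 (adjusted p up to 0.104).

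With sh4, Rbl1 also rose (26.8, 27 and 27.7 CPM against 25, 19.9 and 21.5, log2 fold change 0.3, SE 0.08, adjusted p = 0.00644), as did Lin52 (8.81, 9.36 and 8.03 against 5.09, 8.16 and 6, log2 fold change 0.44, SE 0.15, adjusted p = 0.0238). For Lin52 the groups overlapped and leaving out any of 4 libraries, replicate 1 or 2 of sh4 or replicate 1 or 3 of nt, lost the call (adjusted p up to 0.147), and that of Rbl1 was lost without the second nt library (adjusted p = 0.0541). Lin9, Lin37 and Lin54 did not pass with either hairpin, and their intervals lay between -0.5 (Lin37 with sh4) and 0.32 (Lin9 with sh4). Of the late targets 1 rose and 5 fell with sh3 and 3 rose with sh4. Of the early targets 7 rose and 1 fell with sh3 and 13 rose with sh4. Among all genes tested 35.4% changed with sh3 and 29.1% with sh4. Ccnd1 had the largest change among the partners with both, 0.92 with sh3 and 0.93 with sh4.

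Knockdown of Atf3, a member of the AP-1 group of factors, also used 2 hairpins and 1 set of nt libraries. Atf3 was low in all 9 libraries, at 1.34 ± 0.831 CPM with sh5, 1.72 ± 0.322 with sh6 and 2.98 ± 0.289 with nt (SD, n = 3). It passed with sh5 (adjusted p = 0.0447) and not with sh6 (adjusted p = 0.114), so these counts alone show the knockdown weakly at this depth. The study also reports the knockdown by RT-qPCR and by immunoblot, which were not examined here. Of the 13345 genes tested 35.9% changed with sh5, 49.8% with sh6 and 52.6% between the hairpins, with 26.6% lower with sh6. The fibroblast markers summed to 13300 to 14300 CPM with sh6, 21100 to 33600 with sh5 and 34800 to 36700 with nt. The skeletal muscle markers summed to 197 to 217 CPM with sh6 (5 of 6 with reads, Myog at 0), 14.4 to 17.4 with sh5 (4 of 6) and 37.5 to 38.8 with nt (5 of 6, Ckm at 0). The endothelium markers summed to 8.33 to 11.6 CPM with sh6, 7.64 to 9.75 with sh5 and 13.3 to 15.1 with nt, and the macrophage markers to 13.5 to 13.8, 18.3 to 23.2 and 15.6 to 16.9. These values move with the results below, and their part was not tested.

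The third sh5 library stood apart from the other sh5 libraries. The chi-square statistic of their counts per degree of freedom was 55.9 and 59.9 for the pairs with it and 3.2 for the pair without it, against 2.74 to 41.1 over all other pairs of 1 group in the RNA-seq data. Its fibroblast sum was 21100 CPM, where the other sh5 libraries had 32500 and 33600. It had the highest sh5 value of Rb1, Rbl1, Lin9, Lin52, Lin54 and Mybl2 and the lowest of Lin37 and Foxm1. Values without this library are given beside the results below.

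Both Atf3 comparisons use the same nt libraries, so they are not independent of each other. Rb1 passed in each and was higher with the hairpin. It was at 30.5, 29.7 and 35.1 CPM with sh5, 22.1, 25.4 and 29.2 with sh6 and 19.2, 19.9 and 20.6 with nt (log2 fold change 0.67, SE 0.12, adjusted p = 0.00264 for sh5 and 0.36, SE 0.12, adjusted p = 0.0268 for sh6). Foxm1 passed in each and was lower. It was at 22, 21.8 and 18.4 CPM with sh5, 15.1, 16.4 and 14.4 with sh6 and 24.9, 27.4 and 25.8 with nt (-0.32, SE 0.11, adjusted p = 0.0365 for sh5 and -0.77, SE 0.11, adjusted p = 1.99e-04 for sh6). No library of either hairpin overlapped nt for these genes, as was the case for 53.9% of all genes with sh5 and 67.6% with sh6. Lin9 was also higher, from 7.51, 8.89 and 8.77 CPM with nt to 11.2, 9.67 and 13.8 with sh5 (0.46, SE 0.15, adjusted p = 0.0356) and 11.3, 11.9 and 12.9 with sh6 (0.52, SE 0.15, adjusted p = 0.0152), without overlap. Without the third sh5 library, Rb1 with sh5 was at a log2 fold change of 0.62 (adjusted p = 3.71e-04), and the calls of Foxm1 (-0.22, adjusted p = 0.0796) and Lin9 (0.34, adjusted p = 0.053) with sh5 were lost.

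Rbl1 and Rbl2 differed between the Atf3 hairpins. So did 52.6% of all genes tested, with 26.6% lower with sh6. Rbl2 was at 28.5, 30.7 and 32.9 CPM with sh6 and 57.3, 55.8 and 54.2 with nt, a fall of 1.81-fold (log2 fold change -0.86, SE 0.09, adjusted p = 1.8e-05), while with sh5 it was at 56.1, 49.6 and 52.2 and the interval ran from -0.27 to 0.1. Rbl1 rose with sh5 (20.1, 22.7 and 27.8 CPM against 16.2, 16.8 and 17.7, log2 fold change 0.48, SE 0.15, adjusted p = 0.0285) and was at 12.1, 11.9 and 15.7 with sh6 (-0.35, interval -0.68 to -0.02, adjusted p = 0.0713). Between the hairpins, 5 members were lower with sh6 than with sh5, namely Rbl1 (-0.83, adjusted p = 9.91e-04), Rbl2 (-0.78, adjusted p = 4.03e-05), Foxm1 (-0.44, adjusted p = 0.00624), Lin54 (-0.43, adjusted p = 0.0236) and Rb1 (-0.31, adjusted p = 0.0456). None of the 5 overlapped between the hairpins, as was the case for 59.7% of all genes. Without the third sh5 library, Rbl1 was at 0.37 with sh5 (adjusted p = 0.0255) and at -0.34 with sh6 (adjusted p = 0.016), which then passed, and between the hairpins Rbl1 (-0.71), Rbl2 (-0.8), Foxm1 (-0.54) and Lin54 (-0.31) passed and Rb1 (-0.25, adjusted p = 0.057) did not.

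Mybl2 did not pass with either Atf3 hairpin, with 6.28 to 9.47 CPM in the knockdown libraries and 7.38 to 8.27 with nt, and the intervals ran from -0.44 to 0.31 for sh5 and -0.44 to 0.32 for sh6. Lin37, Lin52 and Lin54 did not pass with either hairpin, but with sh5 they missed the threshold with intervals of 1 sign. They were at -0.4 for Lin37 (interval -0.74 to -0.06, adjusted p = 0.062), -0.42 for Lin52 (-0.76 to -0.08, adjusted p = 0.0524) and 0.37 for Lin54 (0.07 to 0.68, adjusted p = 0.0574). No sh5 library overlapped nt for these genes, as was the case for 53.9% of all genes. With sh6 their intervals held both signs. Without the third sh5 library Lin52 passed with sh5 (log2 fold change -0.49, adjusted p = 0.0228). Several of the Atf3 calls lay close to the threshold and were lost in fits with 1 library fewer, while the fold changes kept their direction. In the 9 such fits the log2 fold change with sh5 ran from 0.37 to 0.58 for Rbl1, 0.34 to 0.58 for Lin9 and -0.37 to -0.22 for Foxm1, and that of Rb1 with sh6 from 0.26 to 0.47. Leaving out any of the 3 nt libraries ended these 4 calls, with the highest adjusted p at 0.0849, 0.114, 0.125 and 0.101. Further libraries ended those of Lin9 with sh5 (sh5 replicate 1 or 3 or sh6 replicate 2), of Foxm1 with sh5 (sh5 replicate 3 or any sh6 library), of Rb1 with sh6 (sh6 replicate 2 or 3) and of Lin9 with sh6 (sh6 replicate 3 or nt replicate 1, adjusted p up to 0.0625). Between the hairpins the difference in Rb1 (-0.44 to -0.23) was lost without any of 7 libraries (adjusted p up to 0.145) and that in Lin54 without the first or second sh6 library (adjusted p up to 0.0845). Of the late targets 6 rose and 2 fell with sh5 and 1 rose and 11 fell with sh6. Of the early targets 4 rose and 1 fell with sh5 and 4 rose and 4 fell with sh6. Among all genes tested 35.9% changed with sh5 and 49.8% with sh6.

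ATAC-seq marks open chromatin by where a transposase can cut. The promoter of every member, within 1000 bases of an annotated start, held a called peak in every one of the 13 samples, 117 of 117, and did so too within 500 bases or with a -log10 q of at least 5. The strength of a peak is its fold enrichment over the background of the same sample, as MACS2 gives it, and the depth of the samples is unknown. Mybl2 and Lin52 had the strongest promoter peaks, with a mean fold enrichment of 17.3 ± 0.585 and 16 ± 0.572 at P1 (SD, n = 4), followed by Rbl2 (11.6 ± 0.126), Lin37 (10.7 ± 0.129), Lin54 (10.2 ± 0.851), Lin9 (7.22 ± 0.49), Rbl1 (6.24 ± 0.7), Rb1 (5.96 ± 0.695) and Foxm1 (4.17 ± 0.438). Lin37 and Lin54 did not differ in this order beyond their spread, nor did Rbl1 and Rb1. Foxm1, the member with the most RNA per kb at P1, had the weakest peak.

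Between P1 and P7 the strength of 1 of the 9 promoter peaks changed, where 18.1% of the 14697 promoters tested did (limma on quantile-normalized log2 fold enrichment, Benjamini-Hochberg adjusted p under 0.05). This was Rbl2, with a fold enrichment of 11.7, 11.6, 11.4 and 11.6 at P1 and 9.56, 9.86 and 10.6 at P7. All P7 samples lay below those of P1, and the log2 difference was -0.37 (SE 0.08, adjusted p = 0.00456). Without quantile normalization it was -0.21 and did not pass (adjusted p = 0.134), while the median of all promoters then stood at 0.16. The peak was weaker at P7 while the Rbl2 mRNA was not lower.

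The promoter peak of Mybl2 did not pass between P1 and P7 in fold enrichment, and its mRNA fell 11.1-fold. The fold enrichment was 16.6, 17.1, 17.8 and 17.8 at P1, 16.1, 12.1 and 17 at P3, 22.1, 19.4 and 16.9 at P5 and 20.3, 22.9 and 22.1 at P7. Every P7 sample lay above every P1 sample on this scale, but all promoters had shifted by the same median of 0.16, and after quantile normalization the difference was 0.07 (interval -0.07 to 0.2). Without that normalization the difference was 0.33 and passed (adjusted p = 0.0414). Against P3, Mybl2 was stronger at P7 (0.24, SE 0.07, adjusted p = 0.0379) and Rbl2 was weaker (-0.33, SE 0.08, adjusted p = 0.0276), 2 members where 7.19% of promoters changed. The call of Mybl2 was lost without any of 5 samples, replicate 1 or 2 of P3 or any of P7 (adjusted p up to 0.118), and that of Rbl2 without replicate 1 or 3 of P3 or replicate 2 of P7 (adjusted p up to 0.112). Without quantile normalization the difference in Rbl2 was -0.11 and did not pass (adjusted p = 0.451), and with the replicate number as a block that in Mybl2 did not pass (adjusted p = 0.0543). By the percentile measure described below neither passed against P3 (Mybl2 0.2, adjusted p = 0.843, and Rbl2 -4.1, adjusted p = 0.0683).

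The other members did not pass between P7 and P1. Foxm1 was at 4.33, 4.15, 3.58 and 4.62 at P1 and 3.34, 4.02 and 3.17 at P7, with overlap, and the interval of its log2 difference ran from -0.53 to 0.08 (adjusted p = 0.309). Rbl1 was at 6.64, 5.97, 5.4 and 6.97 at P1 and 6.25, 6.05 and 5.29 at P7 (interval -0.44 to 0.18). The intervals were -0.53 to 0.03 for Rb1, -0.2 to 0.32 for Lin9, -0.15 to 0.2 for Lin37, -0.16 to 0.09 for Lin52 and -0.23 to 0.15 for Lin54. By limma 0 members passed in the steps P1 to P3, P3 to P5 and P5 to P7, where 3.73%, 2.03% and 0.714% of promoters did. At an unadjusted p under 0.05, Mybl2 passed from P1 to P3 and Rbl2 from P5 to P7, and without quantile normalization Mybl2 passed from P3 to P5 (0.38, adjusted p = 0.0354).

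**Figure D4:**
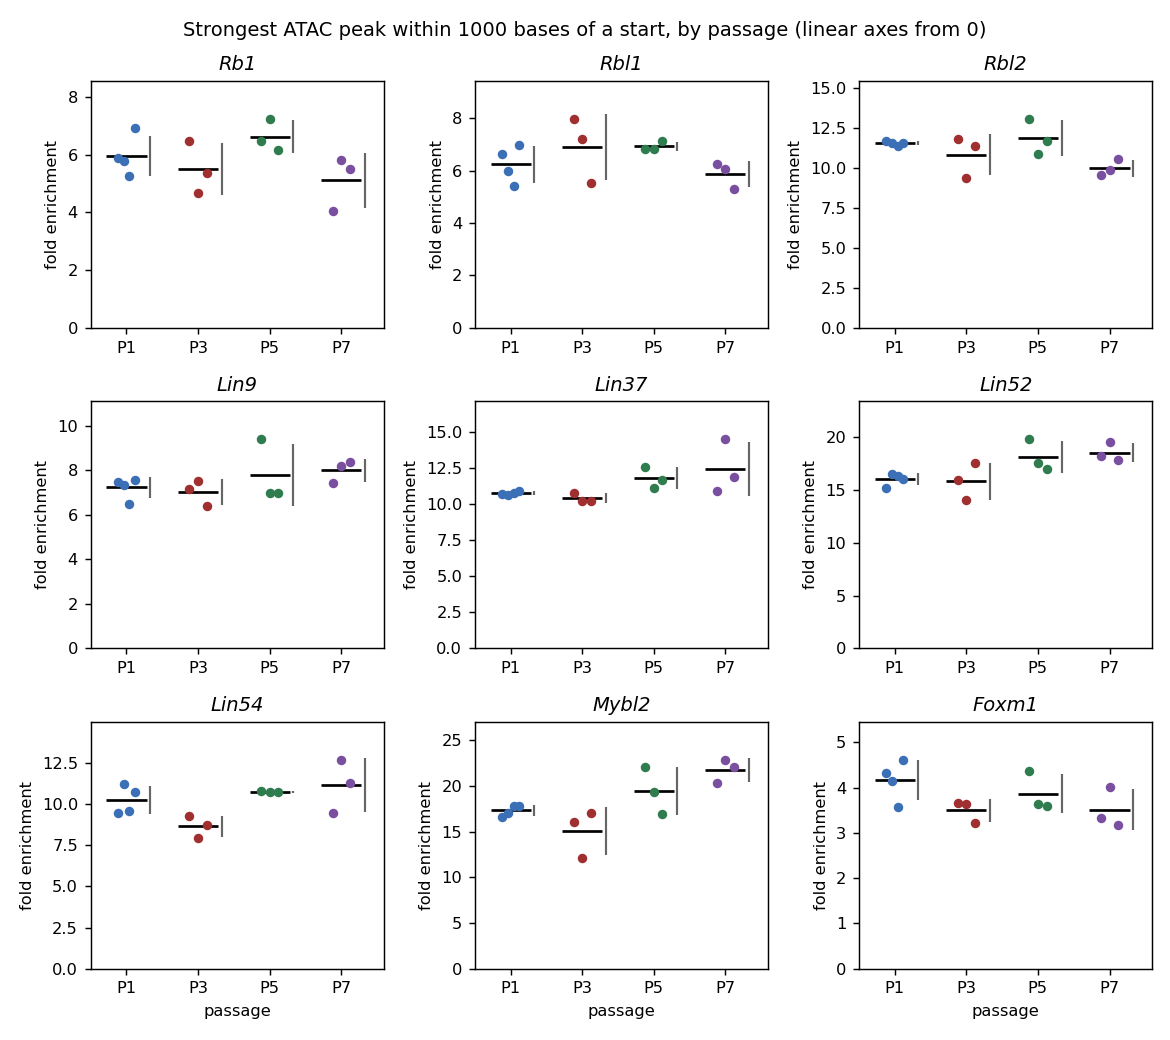
Fold enrichment of the strongest promoter peak of each member (vertical axis, 1 panel per gene with its own axis from 0) at P1, P3, P5 and P7. Each point is 1 sample (4 at P1 and 3 at each later passage), the black line is the mean and the grey bar 1 SD to either side. Rbl2 goes from 11.6 at P1 to 10 at P7, with all P7 samples below P1, and Mybl2 from 17.3 to 21.8 on this scale, which is not normalized.

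A second measure, the percentile of the promoter's strongest -log10 p among all peaks of the sample, put 4 members lower at P7 than at P1 by limma, where 35.2% of promoters changed and 25.6% were lower. Foxm1 was at percentiles 71.5, 67, 61.3 and 71.7 at P1 and 42.3, 50.2 and 37.5 at P7, a difference of -24.5 (SE 4.3, adjusted p = 0.00107). Rb1 differed by -17.4 (SE 3.9, adjusted p = 0.00473), Rbl1 by -12.2 (SE 4.4, adjusted p = 0.0476) and Rbl2 by -5.8 (SE 1.3, adjusted p = 0.00425). For these 4 genes and for Mybl2 (99.4 and 98 on average) all P7 samples lay below all P1 samples, as was the case at 32.8% of all promoters, and the exact two-sided permutation test gave p = 0.0286 for each, the smallest it can give with 4 against 3 samples. The lists held 168982 to 186562 peaks at P1 and 200376 to 231558 at P7, and the part of that number in the percentiles was not tested.

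The promoter peaks also covered less of the window. Counting the bases within 1000 of the start that lie under any peak, Foxm1 had 1413, 1345, 1151 and 1432 at P1 and 896, 650 and 610 at P7, or 53.8% of the P1 mean. Mybl2 had 1383, 1322, 1503 and 1489 bases at P1 and 1024, 777 and 883 at P7 (62.8%), and Lin52 had 1491, 1481, 1323 and 1320 against 1146, 756 and 806 (64.3%). Rb1 stood at 65.8%, Lin37 at 73.7%, Rbl1 at 85.2% and Rbl2 at 86.8%. In these 7 members every P7 sample lay below every P1 sample, as was the case at 44.9% of all promoters. Lin9 (86.9%) and Lin54 (90.7%) overlapped. The median over the members was 73.7% of P1, and over all promoters it was 83.5%, with quartiles of 72.7% and 92.3%. At Mybl2 the peak was 1322 to 1933 bases wide at P1 and 476 to 537 at P7, and each P7 sample had a second peak in the window. No test was made of this measure.

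**Figure D5:**
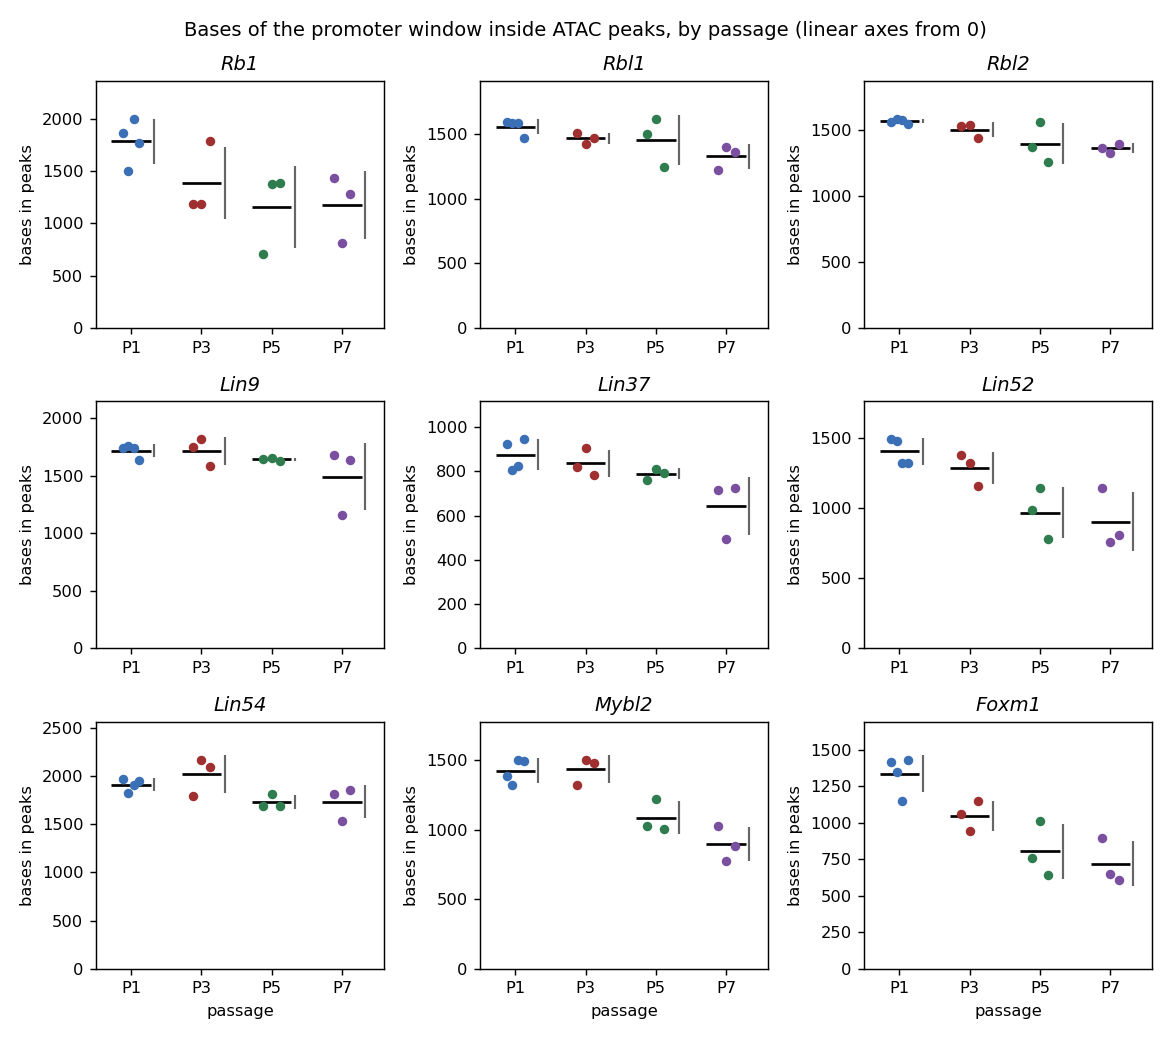
Bases within 1000 of an annotated start that lie under a called peak (vertical axis, 1 panel per gene with its own axis from 0) at each passage. Each point is 1 sample, the black line is the mean and the grey bar 1 SD to either side. Foxm1 goes from a mean of 1335 bases at P1 to 718.7 at P7 and Mybl2 from 1424 to 894.7, while Lin54 goes from 1911 to 1733 with overlap.

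The highest point of the promoter peak kept its place in some members and not in others. Counted from the start, it lay at bases -105 to -92 in all 13 samples of Mybl2, at -114 to -86 in Lin37 and at -234 to -213 in Lin52, all within the stretches printed above. In Lin54 the strongest peak was a different one at P7. At P1, P3 and P5 it was at the inner start (chr5:100498573), with its highest point at -61 to -45 from it, and in all P7 samples it was at the outer start (chr5:100500639), at -170 to -159 from that one. The strengths of Lin54 at P7 and P1 given above are therefore those of peaks at 2 places. In Rbl1 it lay within 50 bases after the start in 3 of 4 P1 samples and in all 3 of P3, and at -440 to -285 in all P7 samples. Rbl2 had its highest point either at -8 to 11 or at 675 to 690, and both places were seen at P1, P3 and P7. The call of Rbl2 therefore sets side by side peaks whose highest point was not the same.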

How the data were processed

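RNA-seq and ATAC-seq of mouse skin fibroblasts were used; the 18 RRBS samples were not analysed here. For RNA-seq, the authors used Trimmomatic 0.39 for trimming, HISAT2 2.2.1 for alignment to mm10 and HTSeq 0.12.4 for unstranded counting, and the deposited values are raw counts. Rows that name no gene (5 in each of 28 libraries, 7.5 to 16.8% of the total) were left out. For ATAC-seq the authors aligned with Bowtie2 2.3.5.1, removed duplicates, kept unique alignments and called peaks with MACS2 in each sample. The deposited peak lists hold a fold enrichment and the −log10 p and q of each peak, and no read counts.

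In R 4.3.3, the counts of every RNA-seq experiment were fitted separately in edgeR 4.0.16 (filterByExpr, TMM, quasi-likelihood test), and CPM are after TMM scaling. The groups of an experiment shared 1 estimate of the spread. Promoter peaks were tested with limma 3.58.1 on quantile-normalized log2 fold enrichment, and single percentiles with an exact permutation test. Adjusted p-values are by Benjamini-Hochberg over all genes or promoters tested, with a threshold of 0.05. Both fits were tested on simulated data first. Alternatives were DESeq2 1.42.0, other scalings, filters and windows, the replicate number as a block, and leaving out each library. Groups came from the sample labels, and positions and exon lengths from the RefSeq annotation of GRCm38.

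Members and gene lists were chosen with earlier results of these data known. Named genes were all members, the targeted genes, the 3 most correlated genes of each member, and from each list the 2 highest and 2 lowest changes at P7 (elsewhere the 2 largest). The precision of a count is limited by total counts of 9147324 to 27552949 per library.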

Additional observations from a re-analysis of the deposited data

Results flagged for a closer look

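Foxm1 in the first P5 library was at 39.3 CPM, and the gap to the nearest of the other 3 libraries was 0.839 of the range of the group, above the critical value of Dixon's test for 4 samples. This was 1 of 54 groups of 4 samples tested, and chance gives about 1 in 20. Leaving that library out kept the calls of Foxm1 between P3 and P5 and between P5 and P7.

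The hairpins against the same factor differed in the following members, by the test of the difference itself in edgeR. Between Tead1 sh4 and sh3 the log2 difference was 0.42 for Mybl2 (adjusted p = 0.00961) and 0.39 for Foxm1 (adjusted p = 4.74e-04), each higher with sh4 in 3 of 3 libraries. Between Atf3 sh6 and sh5 it was -0.31 for Rb1 (adjusted p = 0.0456), -0.83 for Rbl1 (adjusted p = 9.91e-04), -0.78 for Rbl2 (adjusted p = 4.03e-05), -0.43 for Lin54 (adjusted p = 0.0236) and -0.44 for Foxm1 (adjusted p = 0.00624). All 3 sh6 libraries lay below all 3 sh5 libraries in each of these 5 genes, and 59.7% of all genes did not overlap between these hairpins.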

How the results depend on the processing

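The falls of Mybl2, Foxm1, Rbl1, Lin9 and Lin54 from P1 to P7 held under every RNA alternative run (DESeq2, RLE scaling, other filters, the replicate block and each of the 16 fits without 1 library). No call changed sign. Of 52 member calls in RNA, 38 held in every fit that left out 1 library and 14 were lost in at least 1, and of 3 in ATAC-seq 1 held. Without 1 library the number of members called ran from 1 to 2 for E2f4 sh1, 1 to 3 between the Tead1 hairpins, 1 to 6 for Atf3 sh5, 2 to 5 for Atf3 sh6, 3 to 5 between the Atf3 hairpins and 0 to 2 promoters between P7 and P3. Promoter counts also moved with the measure. Without quantile normalization 1 promoter was called between P5 and P3 against 0 (Mybl2, 0.38, adjusted p = 0.0354), and between P7 and P1 Rbl2 was lost (-0.21, adjusted p = 0.134) and Mybl2 called (0.33, adjusted p = 0.0414). Between P7 and P3, Rbl2 was then lost (-0.11, adjusted p = 0.451) and Lin54 called (0.36, adjusted p = 0.0374). By percentile 4 promoters were called between P7 and P1 against 1 (Rb1, Rbl1 and Foxm1 beside Rbl2). Between P7 and P3 it was 1 against 2, a different gene, Rbl1 (-17.29, adjusted p = 0.0345), and neither Mybl2 (0.21, adjusted p = 0.843) nor Rbl2 (-4.14, adjusted p = 0.0683) was called. In RNA, Rbl2 between P7 and P1 was lost with at least 10 counts in every library (adjusted p = 0.0627). Lin54 with Atf3 sh5 was called by DESeq2 (adjusted p = 0.0358) and with at least 10 counts (adjusted p = 0.049). With no filter, Foxm1 with Atf3 sh5 (adjusted p = 0.0732) and Rb1 between the Atf3 hairpins (adjusted p = 0.0593) were lost and Rbl1 between the Tead1 hairpins (0.25, adjusted p = 0.0492) was called. The cause was not tested.

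The correlation of same-numbered samples in their deviations was over 0.1 in 11 of 24 pairs in the passages (-0.262 to 0.276), 2 of 9 with Atf3, 1 of 9 with Tead1, 0 of 3 with E2f4 sh1 and 0 of 18 in ATAC-seq (-0.0601 to 0.0922). With E2f4 overexpressed it was 0.142. With 2 libraries in each group the deviations mirror each other, so both pairs must give this value and other numbers its negative, -0.142. The block there called 8442 genes against 7548. No source says that a number marks shared cells, so the numbers were not taken as a pairing. With the replicate block the members called were 6 instead of 5 for E2f4 overexpression (Lin54, adjusted p = 0.0327), 5 instead of 4 for Atf3 sh6 (Rbl1, adjusted p = 0.0316) and 1 promoter instead of 2 between P7 and P3 (Mybl2, adjusted p = 0.0543), and the block changed no other member call. Peak lists without read counts give no counting interval, and counting intervals would cover counting error only.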
